A study of Mus musculus with 6 samples.

Results

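The 9 genes described here are expressed by mature oligodendrocytes and encode enzymes, a gap junction protein, an iron carrier and cytoskeletal proteins rather than the structural proteins of myelin. They are Adamts4, Aspa, Ugt8a, Fa2h, Car2, Trf, Gjb1, Ermn and Gsn, 9 of the 37315 genes listed in each library. The set was put together by function with earlier results of these libraries known, and Adamts4 was chosen by its log2 ratios, which were among the lowest after both Prrc2a deletions. Values in the 3 pairs are therefore a description of the genes. Where a fit over all genes calls a member, that call is no independent evidence. All 9 genes had at least 100 counts in each of the 3 pairs of libraries, so none was lost to a filter on low counts.

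RNA from the hippocampus of C57BL/6J mice aged 4 weeks was sequenced in 6 libraries, 1 for each of 6 groups. The first pair held Prrc2a flox/flox mice (f/f) and Prrc2a flox/flox mice with nestin-cre, a recombinase made in neural progenitors and therefore acting in neurons, astrocytes and oligodendrocytes. The second pair held Prrc2a flox/flox mice and Prrc2a flox/flox mice with Olig2-cre, a recombinase that replaces 1 copy of Olig2, so the loss of that copy and the deletion of Prrc2a cannot be told apart in it. The third pair held WT mice and Fto Tg mice, which carry an Fto transgene under a ubiquitin C promoter. The protein Prrc2a reads N6-methyladenosine (m6A), a methyl mark on RNA, and Fto erases it. Whether RNA from several mice was pooled in a library is not given in the sources used here. With 1 library per group no difference within a pair could be set against replicates, and the 95% intervals given for ratios cover counting error only.

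Oligodendrocytes wrap axons in myelin and feed them. Their membrane is rich in galactolipids, which need fatty acid hydroxylation and galactose transfer during synthesis. The cells are joined to each other and to astrocytes by connexins, store more iron than other brain cells, release acetate from N-acetylaspartate made by neurons, and lose much of their actin filament as myelin is wrapped. In whole tissue, fewer oligodendrocytes and less of an RNA in each oligodendrocyte cannot be told apart.

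Total counts per library lay between 18616540 (Olig2-Cre) and 35482589 (the f/f control of Nestin-Cre). The Nestin-Cre library stood apart from the other 5. Mitochondrial genes took 26.2% of its counts against 7.97% to 8.86% elsewhere, and the mean GC content of its genes weighted by counts was 45.7% against 48.5% to 49.2%. In the Nestin-Cre pair the median log2 ratio of all 13753 genes with at least 100 counts was -0.71 when counts were scaled to the library total (CPM), and -0.03 after scaling by the trimmed mean of M values (TMM). The members' ratios in that pair are for this reason also given on the TMM scale. Values of other genes there are by library totals unless TMM is named, and so hold this shift. Prrc2a was at 434 CPM in f/f and 184 CPM in Nestin-Cre, and at 389 CPM in f/f and 346 CPM in Olig2-Cre. Fto was at 158 CPM in WT and 354 CPM in Fto Tg. Olig2 was at 38.9 and 15.5 CPM in the Nestin-Cre pair, 36.9 and 23.7 CPM in the Olig2-Cre pair, and 43.2 and 31.5 CPM in the Fto pair.

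The letters GGACT spell, as DNA, the sequence in which m6A is most often placed, and were searched in the longest coding sequence of each gene in the GENCODE M21 annotation of GRCm38. This search was added after the expression values were seen. The letters occurred in all 9 genes and in 72.0% of 21132 coding sequences. Adamts4 held 6 copies in 2535 bases and Car2 held 3 copies in 780 bases, or 2.37 and 3.85 per kb, above the upper quartile of 1.74 per kb over all genes. Fa2h, with 2 copies or 1.79 per kb, was also above that quartile, and the other 6 genes had 1 or 2 copies each and lay below it. The first copy, in capitals with 10 bases on either side, is printed for Adamts4, whose level was lower in both deletions, for Car2, where the copies were densest, and for Ermn, whose level differed in direction between the deletions. All 3 windows lie within 1 coding exon and are written along the coding strand.
Adamts4, chr1:171256199-171256223, plus strand: ttcctggcaaGGACTatgacgctga
Car2, chr3:14887843-14887867, plus strand: actggcacaaGGACTtccccattgc
Ermn, chr2:58047923-58047947, minus strand: ttgcaagggaGGACTccccactagg
Whether any of these copies carries m6A or is bound by Prrc2a was not measured in these libraries.

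The RefSeq table of promoters (GRCm38.p6; short windows around start sites) held 10 promoters of 5 of the genes, Gsn, Ermn, Ugt8a, Aspa and Gjb1. The E-box core CANNTG, searched on both strands like the other motifs, was in 9 of these 10 promoters and in 72.3% of all 32851. The SOX core ACAAT was in 5 of them and in 31.0% of all, and the longer form ACAAAG in 2 and in 18.7%. The TATA box TATAAA was in 2 of the 10 and in 13.6% of all promoters, and the CCAAT box in 7 and in 37.4%. Several of the 10 promoters belong to 1 gene, so they are not independent.

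The 3 control libraries gave the level of each gene and its spread between unaltered mice. Per kb of exon, the mean control level was highest for Car2 at 69.6 CPM per kb, followed by Gsn at 41.9, Ugt8a at 24.8, Fa2h at 19.4 and Ermn at 19.0. Adamts4 came next at 9.28 CPM per kb, then Gjb1 at 6.40, Aspa at 3.81 and Trf at 1.84. The value of Trf is too low, since reads on 63.5% of its exon bases were not counted but its level is divided by all of them. Its last place is therefore uncertain. Fa2h and Ermn overlapped between controls, at 18.9 to 19.7 and 18.5 to 19.4 CPM per kb, and all other neighbours in this order were separated in the 3 controls. The order was nearly kept in the Olig2-Cre and Fto Tg libraries. In the Nestin-Cre library Ermn moved from place 4 or 5 to place 1, at 24.4 CPM per kb, and Gsn from place 2 to place 5, at 9.90 CPM per kb. A comparison of genes within 1 library does not depend on how the libraries were scaled against each other. Places can still shift with GC content, along which ratios of all genes in the Nestin-Cre pair differed, as given below.

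**Figure D1:**
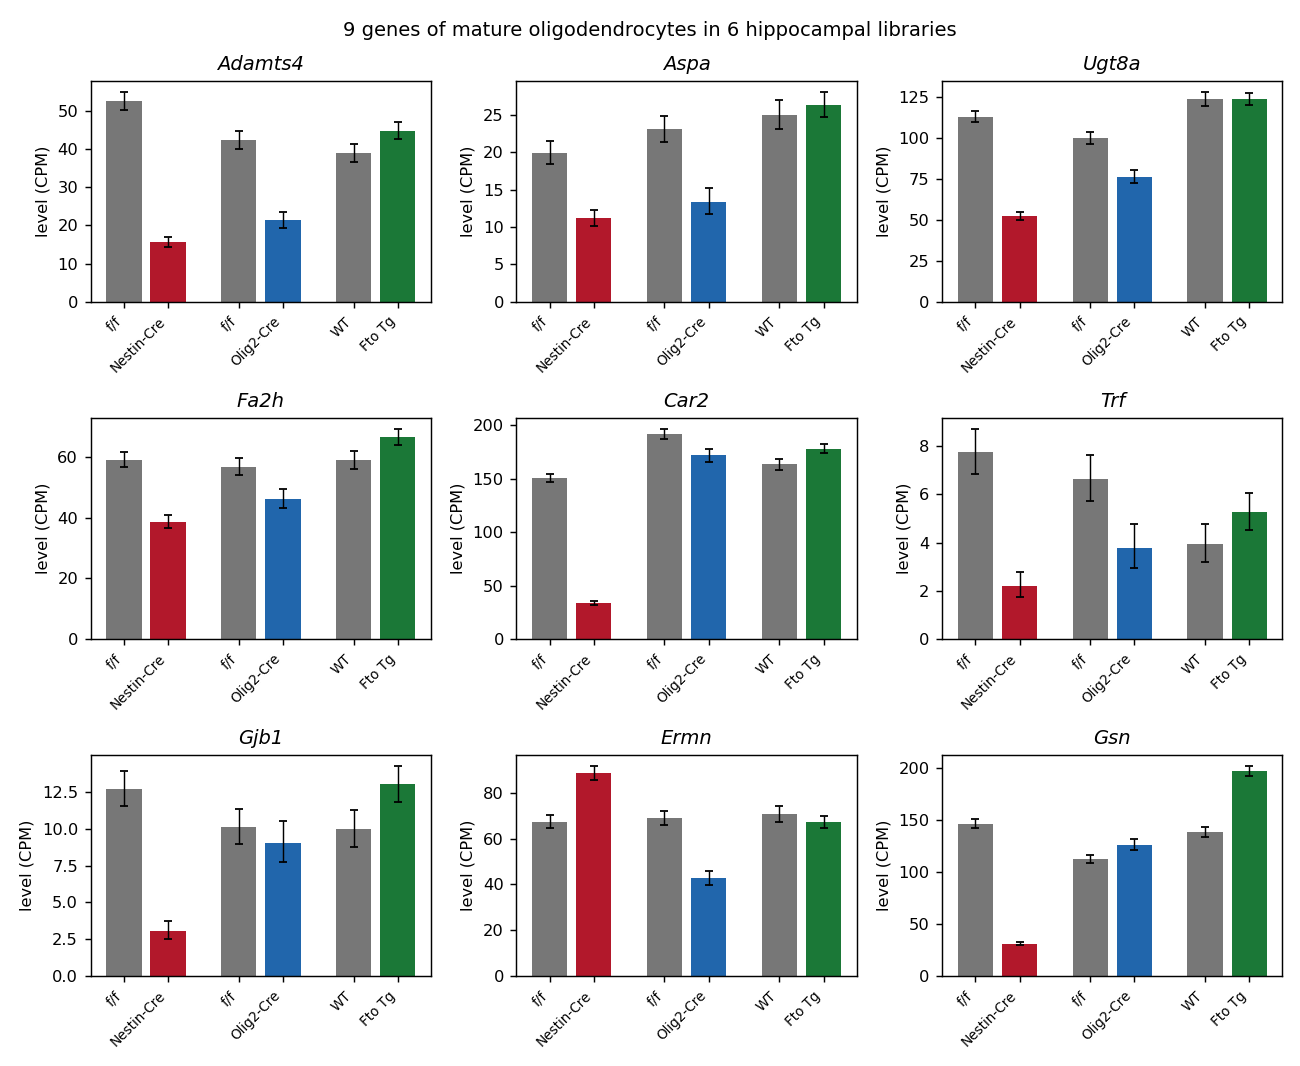
Level of each of the 9 genes (vertical axis, CPM, from 0) in the 6 libraries, drawn as 1 bar per library with its 95% counting interval; grey bars are the 3 controls. Adamts4 and Aspa are low in both Cre libraries, and Car2 and Gsn only in the Nestin-Cre library. Gjb1 is far below the controls in Nestin-Cre and just below them in Olig2-Cre. Ermn is at 88.6 CPM in Nestin-Cre and 42.8 CPM in Olig2-Cre.

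Adamts4 (ENSMUSG00000006403, chr1:171250421-171260637, plus strand) encodes a secreted protease that cleaves proteoglycans such as brevican and is made in the brain mainly by mature oligodendrocytes. Its level was 52.6 CPM in f/f and 15.5 CPM in Nestin-Cre, 42.4 CPM in f/f and 21.4 CPM in Olig2-Cre, and 38.9 CPM in WT and 44.8 CPM in Fto Tg. The 2 Cre libraries were the lowest of the 6, and the controls averaged 44.6 ± 7.12 CPM (SD, n = 3). The difference was 3.38-fold in the Nestin-Cre pair, a log2 ratio of -1.76 (95% counting interval -1.90 to -1.62) and -1.07 on the TMM scale. In the Olig2-Cre pair the level was 1.98-fold lower (log2 ratio -0.98, interval -1.15 to -0.82), the largest drop of the 9 genes in that pair. The Fto Tg library lay between the controls.

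Aspa (ENSMUSG00000020774, chr11:73304992-73329596, minus strand) encodes aspartoacylase, which splits N-acetylaspartate into acetate and aspartate and is lost in Canavan disease. It was counted at 19.9 and 11.2 CPM in the Nestin-Cre pair, 23.1 and 13.4 CPM in the Olig2-Cre pair, and 25.0 and 26.3 CPM in the Fto pair, the control first. As for Adamts4, both Cre libraries lay below all 3 controls, whose mean was 22.7 ± 2.56 CPM (SD, n = 3). The log2 ratios of the 2 deletions were alike on the scale of library totals, -0.84 (-1.02 to -0.66) with Nestin-Cre and -0.79 (-1.00 to -0.58) with Olig2-Cre. On the TMM scale the Nestin-Cre value was -0.15, under a fold of 1.2, whereas the Olig2-Cre value was -0.80.

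Ugt8a (ENSMUSG00000032854, chr3:125865271-125938619, minus strand) encodes the galactosyltransferase that makes galactosylceramide, the main glycolipid of myelin. The control and altered libraries gave 113 and 52.5 CPM with Nestin-Cre, 100.4 and 76.3 CPM with Olig2-Cre, and 124 CPM in both WT and Fto Tg. Both deletions were again below every control, while the Fto Tg and WT libraries had the same level to 3 digits. The log2 ratio was -1.11 (-1.19 to -1.03) with Nestin-Cre and -0.42 on the TMM scale, and -0.39 (-0.49 to -0.30) with Olig2-Cre.

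Fa2h (ENSMUSG00000033579, chr8:111345135-111393824, minus strand) encodes the hydroxylase that supplies 2-hydroxy fatty acids to the same lipids. It had the tightest controls of the set, at 58.3 ± 1.28 CPM (SD, n = 3), with 59.2, 56.8 and 59.0 CPM in the 3 libraries. Nestin-Cre was at 38.8 CPM, Olig2-Cre at 46.2 CPM and Fto Tg at 66.7 CPM. The Cre libraries lay below and Fto Tg above the narrow range of the controls. The log2 ratio was -0.61 (-0.71 to -0.51) with Nestin-Cre, near the median of all genes, and turned to 0.07 on the TMM scale, so no direction is given for Fa2h in that pair. With Olig2-Cre the level was 1.23-fold lower (log2 ratio -0.30, interval -0.42 to -0.18), the member just past the fold of 1.2.

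Car2 (ENSMUSG00000027562, chr3:14886273-14900770, plus strand) encodes carbonic anhydrase 2, which interconverts carbon dioxide and bicarbonate in oligodendrocytes and also in choroid plexus epithelium. It was at 151 CPM in f/f and 33.3 CPM in Nestin-Cre, at 192 CPM in f/f and 172 CPM in Olig2-Cre, and at 163 CPM in WT and 178 CPM in Fto Tg. Only the Nestin-Cre library was outside the controls, which averaged 169 ± 21.1 CPM (SD, n = 3). The level there was 4.52-fold lower, a log2 ratio of -2.18 (-2.27 to -2.08) and -1.49 on the TMM scale. With Olig2-Cre the log2 ratio of -0.16 was smaller than the 0.35 between the most distant controls.

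Gjb1 (ENSMUSG00000047797, chrX:101376378-101385629, plus strand) encodes connexin 32, a gap junction protein of oligodendrocytes and their myelin. It was a gene of low level, with 12.7 and 3.08 CPM in the Nestin-Cre pair, 10.1 and 9.02 CPM in the Olig2-Cre pair, and 9.96 and 13.0 CPM in the Fto pair. The Nestin-Cre library was far below the other 5, among which Olig2-Cre was just below and Fto Tg just above the 3 controls. The log2 ratio was -2.04 (-2.36 to -1.74) with Nestin-Cre and -1.36 on the TMM scale. With Olig2-Cre it was -0.16 with an interval from -0.44 to 0.12, so no difference from the control of the pair could be detected at this depth. Against the other f/f library it was -0.49.

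Trf (ENSMUSG00000032554, chr9:103204001-103230444, minus strand) encodes transferrin, which carries iron and is made in the brain by oligodendrocytes and choroid plexus epithelium. Its counts are a lower estimate, because 63.5% of its exon bases are shared with the gene model Gm20425 on the same strand and reads falling on 2 genes were not counted. Gm20425 itself had at most 1 count per library. Trf had 275 counts (7.75 CPM) in f/f and 77 counts (2.22 CPM) in Nestin-Cre, 192 counts (6.61 CPM) in f/f and 70 counts (3.76 CPM) in Olig2-Cre, and 99 counts (3.93 CPM) in WT and 183 counts (5.25 CPM) in Fto Tg. Relative to their mean the controls spread more than for any other member, at 6.10 ± 1.96 CPM (SD, n = 3), and the Olig2-Cre library was only slightly below the WT library. The log2 ratio was -1.80 (-2.19 to -1.44) with Nestin-Cre, -1.12 on the TMM scale, and -0.81 (-1.23 to -0.41) with Olig2-Cre.

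Ermn (ENSMUSG00000026830, chr2:58045113-58052864, minus strand) encodes ermin, a cytoskeletal protein of myelinating oligodendrocytes that binds actin. It was at 67.4 CPM in f/f and 88.6 CPM in Nestin-Cre, at 68.9 CPM in f/f and 42.8 CPM in Olig2-Cre, and at 70.7 CPM in WT and 67.2 CPM in Fto Tg. The controls lay within 69.0 ± 1.65 CPM (SD, n = 3), and the 2 deletions lay outside them on opposite sides. The log2 ratio was 0.39 (0.32 to 0.47) with Nestin-Cre and 1.08 on the TMM scale, and -0.69 (-0.81 to -0.57) with Olig2-Cre. No other member was higher in the Nestin-Cre library on the scale of library totals.

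Gsn (ENSMUSG00000026879, chr2:35256380-35307892, plus strand) encodes gelsolin, which cuts actin filaments and is expressed by oligodendrocytes and by cells of vessels and meninges. It was at 147 CPM in f/f and 31.2 CPM in Nestin-Cre, at 112 CPM in f/f and 126 CPM in Olig2-Cre, and at 138 CPM in WT and 198 CPM in Fto Tg. The Nestin-Cre library was the lowest and the Fto Tg library the highest of the 6, both outside the controls at 132 ± 17.9 CPM (SD, n = 3). The level was 4.69-fold lower with Nestin-Cre (log2 ratio -2.23, interval -2.33 to -2.14), the largest difference of the 9 genes, and -1.55 on the TMM scale. With Fto Tg it was 1.43-fold higher (log2 ratio 0.51, interval 0.46 to 0.57). The log2 ratios of Ermn and Gsn were 2.63 apart in the Nestin-Cre pair and 0.86 apart in the Olig2-Cre pair in the other order (-0.86). No scaling of whole libraries changes these distances, but the adjustment for GC content and length given below does. After it Ermn and Gsn were at 0.64 and -0.78 with Nestin-Cre, and at -0.57 and 0.02 with Olig2-Cre.

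In the Nestin-Cre pair, 8 of the 9 genes were lower and 1 was higher by a fold of at least 1.2, the fold used in the study. On this scale 67.8% of all genes tested were lower and 15.7% were higher, so most genes of the library, and not the members alone, were lower. The median log2 ratio of the members was -1.76 against -0.71 for all genes. After TMM scaling 6 members were lower and 1 was higher, against 40.7% and 38.0% of all genes, with medians of -1.07 and -0.03. By distance from the 3 controls, 8 members were below all of them and 1 above, where 72.2% and 17.8% of genes were; on the TMM scale 7 were below and 2 above, against 45.3% and 41.3%. In the edgeR quasi-likelihood fit of this library against the 3 controls, with 1 library set against a spread estimated with 2 residual degrees of freedom, Adamts4, Car2, Gjb1 and Gsn were lower and Ermn was higher at a false discovery rate (FDR) of 0.05. In the same fit 24.6% of 18190 genes were lower and 23.2% were higher, and the members' count is given as a description only.

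**Figure D2:**
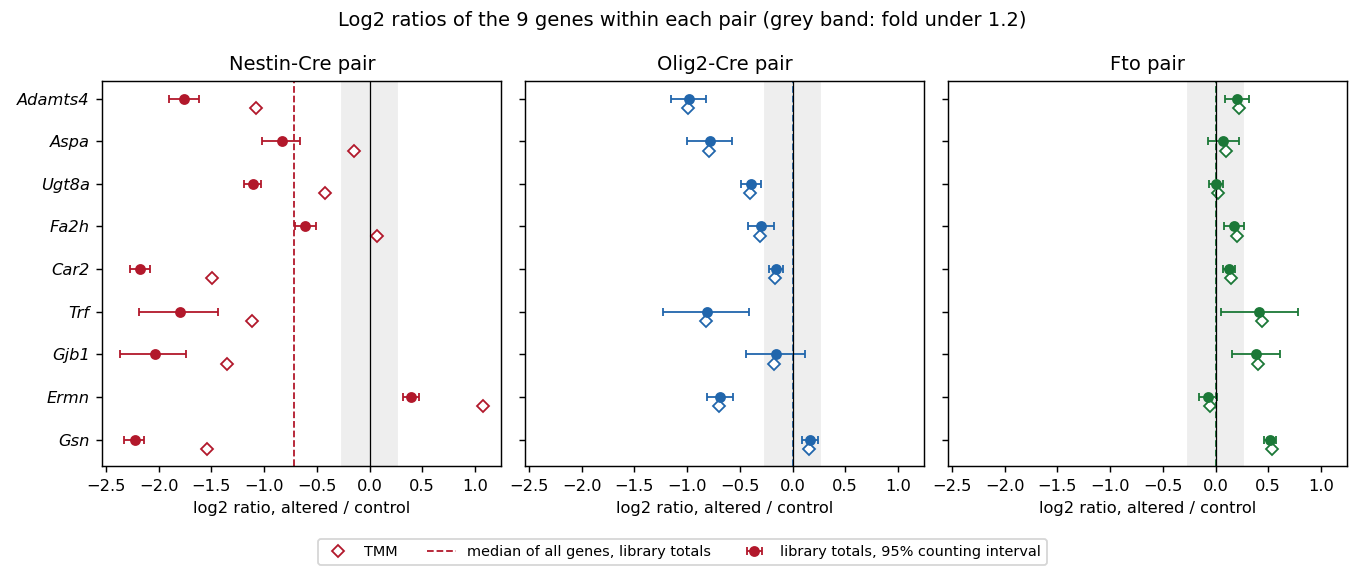
Log2 ratio of altered over control library (horizontal axis) for the 9 genes in the 3 pairs; filled circles with 95% counting intervals use library totals, open diamonds use TMM scaling, the dashed line is the median of all genes and the grey band a fold under 1.2. In the Nestin-Cre pair the members reach from -2.23 to 0.39, in the Olig2-Cre pair from -0.98 to 0.17 and in the Fto pair from -0.07 to 0.51.

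With Olig2-Cre the log2 ratios of the 9 genes covered 1.15 units. Adamts4, Trf, Aspa and Ermn were lower by a fold of at least 1.5, which 2.77% of all genes were, and Ugt8a and Fa2h were lower by a fold between 1.2 and 1.5. Car2, Gjb1 and Gsn stayed within the fold of 1.2, and these 3 had, with Adamts4 and Trf, the lowest ratios of the set in the Nestin-Cre pair. In all, 6 of 9 members were lower and 0 were higher by a fold of at least 1.2, where 15.5% of 13329 genes were lower and 13.4% were higher. The median log2 ratio of the members was -0.39 against 0.00 for all genes. Below all 3 controls were 7 members, Gjb1 in addition to those 6, and 0 were above, where 29.8% of genes were in each direction. The edgeR fit against the 3 controls called 0 of 18190 genes in either direction (0.00%) and 0 members at an FDR of 0.05. At an unadjusted p of 0.05 that fit held 923 lower and 574 higher genes, 5 members among the lower ones, and the DESeq2 Wald test called 32 lower genes (0.228%), 2 of them members, and 10 higher genes.

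In the Fto pair 0 members were lower and 3, Gsn, Trf and Gjb1, were higher by a fold of at least 1.2, where 16.9% of 13707 genes were lower and 14.8% were higher. The median log2 ratio of the members was 0.18 against 0.00 for all genes. For Trf the log2 ratio was 0.41 (0.06 to 0.78), but the Fto Tg library lay within the controls, and for Gjb1 it was 0.38 (0.16 to 0.61), with the Fto Tg library at 13.0 CPM just above the highest control at 12.7 CPM. Above all 3 controls were 5 members, Aspa, Ugt8a, Fa2h, Gjb1 and Gsn, and 1, Ermn, was below, against 29.6% and 29.9% of genes. The set was put together with results of this pair known too, so these values are also a description. In the edgeR fit against the 3 controls the adjusted p of the members ran from 0.464 for Gsn to 0.989 for Adamts4, and 0 members were called at an FDR of 0.05. That fit called 1 gene higher (0.00550%) and 0 lower, and at an unadjusted p of 0.05 it held 951 lower and 821 higher genes with 1 member among the higher ones. The DESeq2 Wald test called 57 lower and 19 higher genes and 0 members.

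The order of the members followed their base composition or length in part, as a description over 9 points that share libraries. In the Nestin-Cre pair Spearman's rho between log2 ratio and GC content was -0.60, in the Fto pair it was 0.88 and in the Olig2-Cre pair 0.32. Against exon length rho was 0.48, -0.40 and -0.73 in the Nestin-Cre, Fto and Olig2-Cre pairs. Genes in general did the same in the Nestin-Cre pair. Their median log2 ratio was -0.14 for 682 genes of 37% to 40% GC. It was -1.19 for 2383 genes of 54% to 58% GC. In the same low and high GC ranges the medians were -0.17 and 0.10 in the Fto pair, and -0.15 and 0.09 in the Olig2-Cre pair. Aspa, Ugt8a and Ermn have 38.5%, 38.0% and 38.0% GC, and Adamts4, Fa2h, Gjb1 and Gsn have 55.2%, 55.2%, 56.7% and 57.1%. Ratios were also adjusted by subtracting the median of genes of like GC content and then, from the remainder, that of genes of like length. So adjusted, the Nestin-Cre log2 ratios were -1.34 for Car2, -0.98 for Ugt8a, -0.81 for Trf and -0.78 for Aspa and for Gsn. They were -0.64 for Adamts4, -0.41 for Gjb1, 0.64 for Ermn and 0.65 for Fa2h. With Olig2-Cre the adjusted values were -1.05 for Adamts4, -0.91 for Trf, -0.59 for Aspa, -0.57 for Ermn and -0.43 for Fa2h, all past the fold as before. Gjb1 at -0.41 came to lie past the fold, Ugt8a at -0.25 came to lie within it, and Car2 at -0.25 and Gsn at 0.02 stayed within it. With Fto Tg Gjb1 at 0.10 came to lie within the fold and Aspa at 0.28 past it, beside Trf at 0.31 and Gsn at 0.33, so the 3 higher members were not the same ones. The part of base composition in these ratios was not tested beyond this adjustment.

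**Figure D3:**
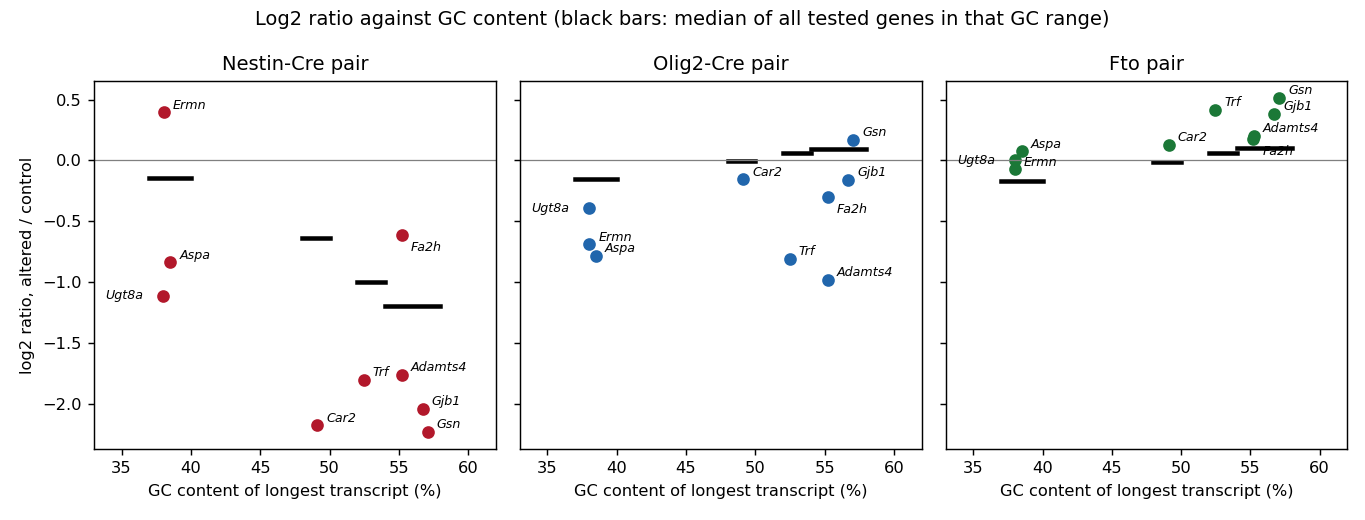
Log2 ratio of altered over control library (vertical axis) against the GC content of the longest transcript in percent (horizontal axis) for the 9 genes in the 3 pairs; black bars are medians of all tested genes in 4 ranges of GC content. In the Nestin-Cre pair the bars descend from -0.14 to -1.19, and Ermn, Aspa and Ugt8a sit in the GC range with the highest bar.

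Other connexins of glia did not share 1 pattern with Gjb1. Of 8 connexin genes, 6 were lower and 0 higher with Nestin-Cre (4 and 2 on the TMM scale, where Gjc3 at 0.49 and Gja1 at 0.69 were the higher ones), 2 were lower and 2 higher with Olig2-Cre, and 0 were lower and 3 higher with Fto Tg. Gjc3 (connexin 29) took another course than Gjb1, at -0.20 on the log2 scale with Nestin-Cre and 80.9 and 49.4 CPM, a log2 ratio of -0.71, with Olig2-Cre. Thus, against the control of its own pair, Gjb1 was lower past the fold with Nestin-Cre alone and Gjc3 with Olig2-Cre alone. These are single libraries, and the difference between the pairs was not tested. Against the mean of 3 controls or the other f/f library Gjb1 was past the fold with Olig2-Cre too, at -0.27 and -0.49. Of the astrocyte connexins, Gja1 (connexin 43) had log2 ratios of 0.01, 0.03 and 0.10, Gjb6 (connexin 30) of -1.00, 0.03 and 0.15, and Gjb2 (connexin 26) of -0.75, -0.28 and 0.09 in the Nestin-Cre, Olig2-Cre and Fto pairs. The neuronal connexin gene Gjd2 was at -1.82, 0.35 and 0.34. The vascular genes Gja4 and Gjc1 were at -2.23, 0.62 and 0.64 and at -0.53, -0.25 and -0.06. On the TMM scale the Nestin-Cre values of Gjb2 and Gjc1 were -0.07 and 0.15, within the fold.

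Among 13 genes of iron handling 12 were lower and 1 was higher with Nestin-Cre (10 and 2 on the TMM scale), 1 was lower and 1 higher with Olig2-Cre, and 2 were lower and 3 higher with Fto Tg. Trf was the lower gene with Olig2-Cre. The ferritin chains Fth1 and Ftl1, which store iron and have pseudogene copies that make their counts uncertain, had log2 ratios of -1.20 and -2.88 with Nestin-Cre, 0.20 and 0.25 with Olig2-Cre, and 0.35 and 0.36 with Fto Tg. Tfrc, the transferrin receptor, was at -0.78, -0.03 and -0.32 in the 3 pairs in the same order. On the TMM scale its Nestin-Cre value was -0.10, within the fold. Cp, which oxidizes iron for export, was the gene of the list that was higher with Nestin-Cre (0.86) by library totals, and Hfe, a regulator of iron uptake, was the one higher with Olig2-Cre (0.37). The exporter Slc40a1 had ratios of -1.40, -0.26 and -0.13, the importer Slc11a2 of -1.52, -0.09 and 0.05, and the importer Slc39a14 of -1.03, -0.14 and -0.05. For the iron regulatory proteins Aco1 and Ireb2 they were -1.43, 0.06 and 0.17, and -1.43, -0.17 and -0.26. Steap3, a reductase, was at -1.54, -0.21 and -0.05, and Heph, an oxidase, at -0.33, 0.09 and -0.50, its value with Nestin-Cre turning to 0.35 on the TMM scale.

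The galactolipid pathway around Ugt8a and Fa2h had 11 genes, all 11 lower with Nestin-Cre (7 lower and 0 higher on the TMM scale). With Olig2-Cre Ugt8a and Fa2h were the 2 lower genes of the pathway and 1 gene was higher, and with Fto Tg 0 were lower and 1 was higher. The list medians were -1.59, -0.08 and 0.10. Gal3st1, which sulfates galactosylceramide to sulfatide directly downstream of Ugt8a, was at 15.0 and 1.27 CPM in the Nestin-Cre pair, a log2 ratio of -3.56, at -0.14 in the Olig2-Cre pair and at 0.50 in the Fto pair. Ceramide synthesis genes upstream were lower with Nestin-Cre, from -0.58 for Sptlc2 and -0.71 for Degs1 to -1.80 for Kdsr, -1.85 for Sptlc1 and -1.86 for Cers2, but on the TMM scale Sptlc2 at 0.11 and Degs1 at -0.02 were within the fold. With Olig2-Cre the same 5 genes ran from -0.20 for Cers2 to 0.25 for Sptlc1, within the fold. The genes of breakdown in lysosomes, Galc, Arsa and Psap, had ratios of -0.58, -2.06 and -1.59 with Nestin-Cre (0.11, -1.38 and -0.90 on the TMM scale) and of 0.09, 0.26 and 0.28 with Olig2-Cre.

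Around Aspa, all 7 genes of N-acetylaspartate and acetate use were lower with Nestin-Cre (2 lower and 0 higher on the TMM scale), Aspa alone was lower with Olig2-Cre, and 1 gene was higher with Fto Tg. Nat8l, the neuronal enzyme that makes N-acetylaspartate, was at 325 and 69.0 CPM in the Nestin-Cre pair (log2 ratio -2.24) and at 288 and 294 CPM in the Olig2-Cre pair (0.03). Slc13a3, a transporter that takes the compound up, was at -0.94 and 0.08, and Slc25a1, the mitochondrial citrate carrier, at -1.92 and 0.24 in these pairs. Acss1, Acss2 and Acly, which turn acetate or citrate into acetyl-CoA, lay between -0.92 and -0.77 with Nestin-Cre. With Olig2-Cre they lay between 0.02 and 0.05. On the TMM scale Nat8l at -1.55 and Slc25a1 at -1.24 were the 2 lower genes with Nestin-Cre.

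**Figure D4:**
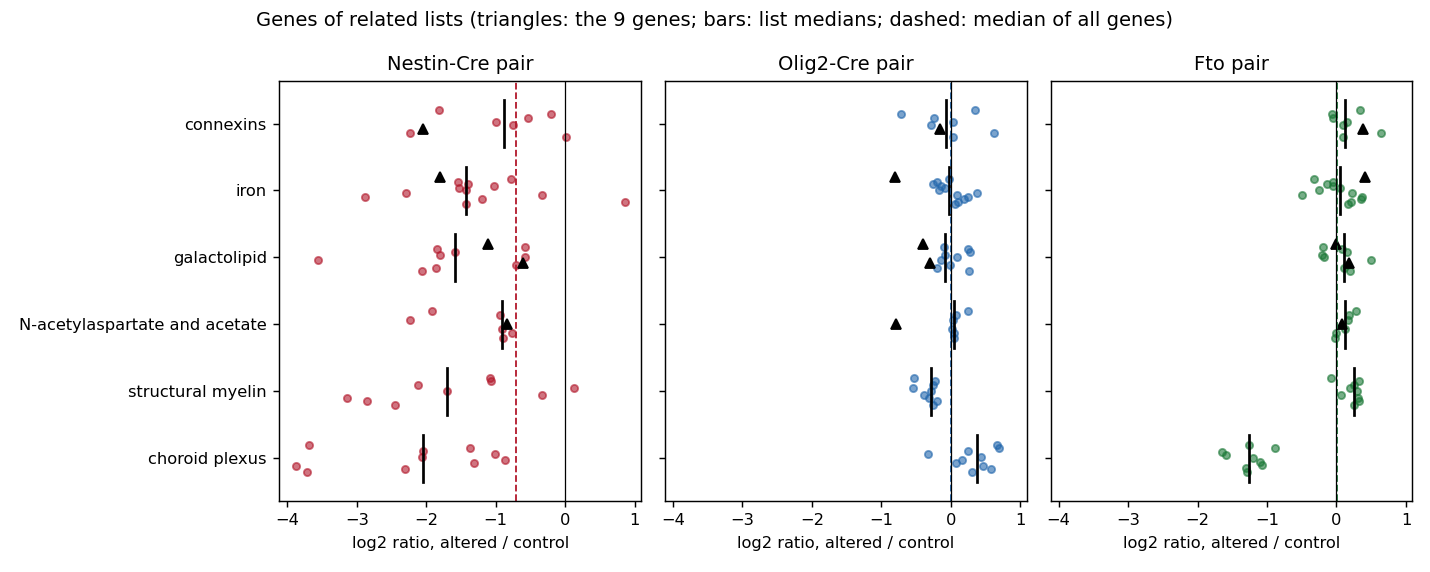
Log2 ratio of altered over control library (horizontal axis) for genes of 6 lists in the 3 pairs; each point is a gene with at least 100 counts in the pair, black triangles are members of the set of 9, short bars are list medians and the dashed line is the median of all genes. In the Olig2-Cre pair Trf (-0.81) and Aspa (-0.79) lie at the low end of the iron and N-acetylaspartate lists, whose medians are -0.03 and 0.04.

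Of the relatives of Car2, 7 of 8 carbonic anhydrase genes were lower and 1, Car10 (log2 ratio 1.16), was higher with Nestin-Cre (3 and 2 on the TMM scale), and Car14 at -1.89 was second to Car2. With Olig2-Cre Car8 at -0.29 was the 1 lower gene, and with Fto Tg 3 of 9 were lower. Among 13 ADAMTS and proteoglycan matrix genes 11 were lower with Nestin-Cre (4 lower and 4 higher on the TMM scale), led by Hapln2 (-2.85) and Bcan (-2.24), 4 were lower and 2 higher with Olig2-Cre, and 5 were lower and 1 higher with Fto Tg. Bcan, brevican, a substrate of the Adamts4 protease, was at 0.24 with Olig2-Cre, and Tnr was at -1.02, -0.68 and -0.68 in the 3 pairs. In the actin list Rdx (0.59) and Ermn (0.39) were the 2 largest rises with Nestin-Cre, Tmsb4x (-2.92, with pseudogene copies) and Gsn the 2 largest falls, and 6 genes were lower and 4 higher of 10 (4 and 5 on the TMM scale). With Olig2-Cre Ermn was the 1 actin gene past the fold of 11 (1 more, Rdx, on the TMM scale).

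The other oligodendrocyte genes gave the frame for these values. Of 9 structural myelin genes 8 were lower with Nestin-Cre (median -1.70; 7 lower and 2 higher on the TMM scale), with Mag at -3.15 and Cnp at -2.86, while Mobp at 0.12 stayed within the fold. On the TMM scale Mobp at 0.81 and Mal at 0.35, the latter at -0.33 by library totals, were the higher ones. With Olig2-Cre 5 of the 9 were lower (median -0.28), from -0.54 for Mobp to -0.20 for Cnp, and with Fto Tg 4 were higher (median 0.26). Adamts4, which was chosen by its low ratio, and Trf, Aspa and Ermn thus had lower ratios with Olig2-Cre than any of the 9 structural myelin genes. For Trf the most distant controls were 0.98 apart, more than the size of its ratio of -0.81. Car2 (-0.16), Gjb1 (-0.16) and Gsn (0.17) had higher ratios than all 9. The highest of the 9, Cnp at -0.20, lay within the counting intervals of Car2 and Gjb1. With the GC and length adjustment Gjb1 was at -0.41, near the median of the structural myelin genes at -0.42. Among the other listed genes, Trim59 (-0.85), Gjc3 (-0.71), Tnr (-0.68), Myrf (-0.64), S1pr5 (-0.57) and Hapln2 (-0.56) were also below all 9. So was the blood gene Hbb-bs (-0.72). This is a description of 1 pair of libraries and not particular to the members. Of 19 other genes of mature oligodendrocytes all 19 were lower with Nestin-Cre (11 lower and 2 higher on the TMM scale), led by Qdpr (-3.64), 8 were lower and 1 higher with Olig2-Cre, led by Trim59 (-0.85), and 1 was lower and 7 were higher with Fto Tg. Of 8 genes of progenitors and newly formed oligodendrocytes 7, 5 and 1 were lower in the Nestin-Cre, Olig2-Cre and Fto pairs and 0 were higher (3 lower and 1 higher on the TMM scale in the Nestin-Cre pair). The summed level of the structural myelin genes was 6624 to 7445 CPM in the controls, 3508 CPM in Nestin-Cre, 5253 CPM in Olig2-Cre and 8804 CPM in Fto Tg, so oligodendrocyte RNA was present in every library.

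Markers of the choroid plexus, whose epithelium also makes Trf and Car2, differed between the libraries more than any other list of other cell types. Their summed level was 1699 to 2943 CPM in the controls, 292 CPM in Nestin-Cre, 3508 CPM in Olig2-Cre and 713 CPM in Fto Tg, and 0 of the 10 genes were at 0 in any library. With Nestin-Cre 10 of 10 were lower (median log2 ratio -2.05), with Olig2-Cre 6 were higher and 1 lower (0.37), and with Fto Tg 9 of 9 were lower (-1.25). Trf (-1.80) and Car2 (-2.18) were lower together with these markers in the Nestin-Cre pair. Over the 3 controls Trf, at 7.75, 6.61 and 3.93 CPM, had the same order as the summed markers, at 2943, 2267 and 1699 CPM. In the Olig2-Cre pair Trf (-0.81) was lower while the markers were higher, and in the Fto pair Trf was higher (0.41, but -0.22 against the mean of 3 controls) while the markers were lower. The part of the choroid plexus in the values of Trf and Car2 was not tested. Markers of endothelium and mural cells, which also express Gsn, summed to 341 to 375 CPM in the controls, 324 CPM in Nestin-Cre, 366 CPM in Olig2-Cre and 392 CPM in Fto Tg. Those of meninges and fibroblasts summed to 256 to 297 CPM in the controls and to 276, 295 and 257 CPM in the 3 altered libraries.

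The genes whose course over the 6 libraries was most like that of the set were found among 12053 genes with at least 100 counts in every control. Likeness was the root mean square difference between a gene's centred log2 CPM and the median centred log2 CPM of the 9 genes. The 10 nearest were Sh3gl3, Nkd1, Cyp4f16, Cyp26b1, Mex3b, Wipf1, Tmbim1, Prodh, Tmem88b and Pacs2, at 0.10 to 0.12 log2 units. Sh3gl3 was at 49.5 and 24.0 CPM in the Nestin-Cre pair, 47.2 and 32.8 CPM in the Olig2-Cre pair, and 50.6 and 56.6 CPM in the Fto pair. Tmem88b, a membrane protein gene in the list of mature oligodendrocyte genes, had log2 ratios of -1.49, -0.54 and 0.26. Of the 9 genes themselves Ugt8a was nearest to their shared course at 0.11 and Ermn farthest at 0.65, with Car2 at 0.49 and Gsn at 0.42 between them.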

How the data were processed

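Poly(A) RNA of mouse hippocampus was sequenced in 6 libraries. The deposited tables hold whole-number read counts per Ensembl gene, not normalized. The labels name mm10, TopHat2 2.0.9 and HTSeq 0.6; by the study's methods the authors kept uniquely mapped reads and counted them in union mode without strand, so reads on overlapping genes or identical copies are missing. The members and gene lists were chosen with earlier results of these data known. Counts were divided by library totals (CPM). Log2 ratios had 0.5 added to each count, over genes with at least 100 counts in a pair, and a fold of 1.2 was used for calls; intervals are exact binomial (Clopper-Pearson, 95%). A level of 3 counts, the smallest amount taken as detectable, was 0.0845 to 0.161 CPM. Each altered library was also fitted against the 3 controls (2 genotypes, 3 experiments) with edgeR 4.0.16 (R 4.3.3; TMM, filterByExpr, FDR 0.05), and with DESeq2 1.42.0. P-values there set the difference of 1 altered library against a spread estimated from these controls. They hold no spread within an altered group. Alternatives were other scalings, folds, minimum counts and controls, and the MARS read test at an FDR of 0.001. A further alternative was adjustment by 20 bins of GC content and then by 20 bins of length. Both were known for 96.9% of genes with a count (GENCODE M21). Scripts (Python 3.11.15) were tested on simulated data. Genes named were the 9 members, the genes of the connexin, iron, galactolipid and N-acetylaspartate lists, the 2 largest falls and rises of other lists as far as they bear on the members, and the 10 most alike; further genes were named after their values were seen. Some genes of the lists are not reported here and were left out of every list count.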

Additional observations from a re-analysis of the deposited data

Results flagged for a closer look

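Ermn was singled out because its level moved opposite ways in the 2 deletion libraries. The 2 contrasts are not fully alike, since Olig2-Cre also replaces 1 copy of Olig2. Its log2 ratio was 0.39 with Nestin-Cre and -0.69 with Olig2-Cre, each from 1 library against 1 control. The difference was not tested, since there is 1 library per group. The Nestin-Cre value was 1.08 after TMM scaling and 0.64 after the GC and length adjustment. The Olig2-Cre value was -0.70 and -0.57 on these scales. On the TMM scale this opposite course was not particular to Ermn. Mobp (0.81 and -0.55), Gjc3 (0.49 and -0.72), Bcas1 (0.62 and -0.46), Mal (0.35 and -0.39), Vcan (0.39 and -0.47) and Rdx (1.27 and -0.26) had it too. Of all genes on that scale 38.0% were higher with Nestin-Cre and 16.6% were lower with Olig2-Cre.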

How the results depend on the processing

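In the Nestin-Cre pair the median log2 ratio of the members, -1.76 by library totals, was -1.07 with TMM, -1.04 with DESeq2 size factors, -1.44 without mitochondrial genes in the total, -1.45 against the mean of 3 controls or the other f/f library, and -0.78 with the GC and length adjustment. The 1 higher member became 2 with that adjustment and 0 at folds of 1.5 and 2. Fa2h reversed to 0.075, 0.11 and 0.65 with TMM, DESeq2 size factors and the GC and length adjustment; the cause was not tested. With library totals in edgeR 8 members were lower against the 3 controls instead of 4. In the Olig2-Cre pair 0 members were lower at a fold of 2, the median of -0.39 became -0.56 against the mean of 3 controls and -0.57 against the other f/f library, and DESeq2 called 2 members where edgeR called 0. In the Fto pair the 3 higher members became 1 against the mean of 3 controls and with the MARS read test, and 0 at folds of 1.5 and 2; Trf reversed to -0.22 against the mean of 3 controls. Leaving out each control in turn left the edgeR calls of members with Nestin-Cre nearly unchanged, and no member was called with Olig2-Cre or Fto Tg. Against the mean of 3 controls or the other f/f library, 7 members were lower past the fold with Olig2-Cre, Gjb1 in addition. Of all genes 15.8% and 19.8% were lower in these 2 settings. Over all alternatives, 85 of the members' ratios stayed within their counting interval, 64 left it without a reversal past the fold, and 4 reversed. No paired analysis was possible because each group had 1 library. Precision is limited most for Trf and Gjb1, with 70 to 275 and 107 to 454 counts per library.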
